A study of Mus musculus with 12 samples.

Results

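The long noncoding RNAs Malat1 and Neat1 lie side by side on mouse chromosome 19, and the deposited annotation covers them with 16 lncRNA genes, of 37111 lncRNA genes and 57683 genes in all. These 16 were taken as every lncRNA gene whose annotated start falls in the stretch of chromosome 19 around the gene n177784, whatever its counts. The data come from 3 hearts of wild-type female FVB/NJ mice aged 12 weeks, dissociated by Langendorff perfusion and collagenase and parted by gravity into cardiomyocytes and nonmyocytes. RNA of cardiomyocytes was taken at once, whereas nonmyocytes were first passaged in culture (2 times by the protocol, P1 by the cell type label) and were then largely fibroblasts. Each fraction has 3 libraries of polyadenylated RNA, bound to oligo(dT) and sequenced without keeping the strand. The labels do not say which heart a numbered library came from, so p-values measure only the spread between these libraries, and the cell fraction and the time in culture cannot be told apart.

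Malat1 is an abundant nuclear RNA that gathers at nuclear speckles, the bodies that store splicing factors. Neat1 is the scaffold of paraspeckles, a neighbouring kind of nuclear body, which only its long form can build, while its short form shares the same start and ends early at a poly(A) site. The long form of Neat1 and the mature Malat1 are cut by RNase P behind an A-rich tract, which folds into a triple helix and protects an end that carries no poly(A) tail. Both genes are transcribed in most mouse tissues, the heart among them.

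Library totals ran from 5956831 to 26851830 counts, with cardiomyocyte library 1 the smallest of the 6. The 7 listed cardiomyocyte markers were all higher in cardiomyocytes by edgeR, and their summed level was 109893.5 to 146519.5 counts per 1000000 counts of the scaled library (CPM) there, against 765.0 to 1025.2 CPM in nonmyocytes. The 8 tested fibroblast markers of 9 were all lower, with sums of 301.4 to 423.5 CPM in cardiomyocytes and 11652.4 to 13590.4 CPM in nonmyocytes. Endothelial markers were higher for 4 of 5 tested genes, with sums of 323.2 to 719.8 CPM in cardiomyocytes against 76.0 to 86.8 CPM in nonmyocytes. Smooth muscle and pericyte markers were higher for 2 and lower for 4 of 6 genes (471.4 to 721.6 CPM against 6423.0 to 7961.1 CPM). Most of that nonmyocyte sum was 1 gene, Acta2, with a mean of 6330.5 CPM where the sum averaged 7146.1 CPM. The 2 that were higher were Rgs5 and Cspg4. Macrophage markers were lower for 2 of 4 tested genes (42.2 to 49.2 CPM against 93.2 to 104.4 CPM), and epicardial markers for 2 of 4 (8.59 to 14.9 CPM against 58.2 to 64.2 CPM). No listed marker was at 0 in all libraries. The part of other cell types in the levels given here was not tested, and in such bulk samples fewer cells of a type and less RNA per cell cannot be told apart.

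The files give these genes catalogue numbers only. In GENCODE M21, Malat1 and Neat1 lie in that order between Ltbp3 and Frmd8, and the deposited annotation has n177784 and n424069 in those places. n177784 spans chr19:5795689-5802671 (mm9, minus strand), a single exon of 6983 bases, the length of Malat1 in GENCODE. n424069 spans chr19:5824707-5845478 (mm9, minus strand), a single exon of 20772 bases, where Neat1 in GENCODE has 20771. The names are used here on that order, strand and length, and no coordinate was converted between builds. The pair is 22035 bases apart, and 4223 bases part n424069 from the 3′ end of Frmd8, which is also on the minus strand.

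Around n177784 the annotation holds 5 further fragments of the same RNA (n273585, n264912, n285966, n295719 and n295471), each of 240 to 1756 exon bases. Inside n424069 lie 9 further genes (n290445, n266659, n424068, n289500, n419521, n263704, n287170, n265015 and n419522), of 1027 to 3178 exon bases. n424068 has the same 5′ end as n424069 and stops after 3178 bases. n419521, with 3006 exon bases in 2 exons, is the closest in length to the short form of GENCODE, which has 3004. Of the 16 genes, 15 lie on the minus strand. The gene on the plus strand, n419522, lies antisense within the span of n424068. A single exon makes up 11 of the 16.

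**Figure D1:**
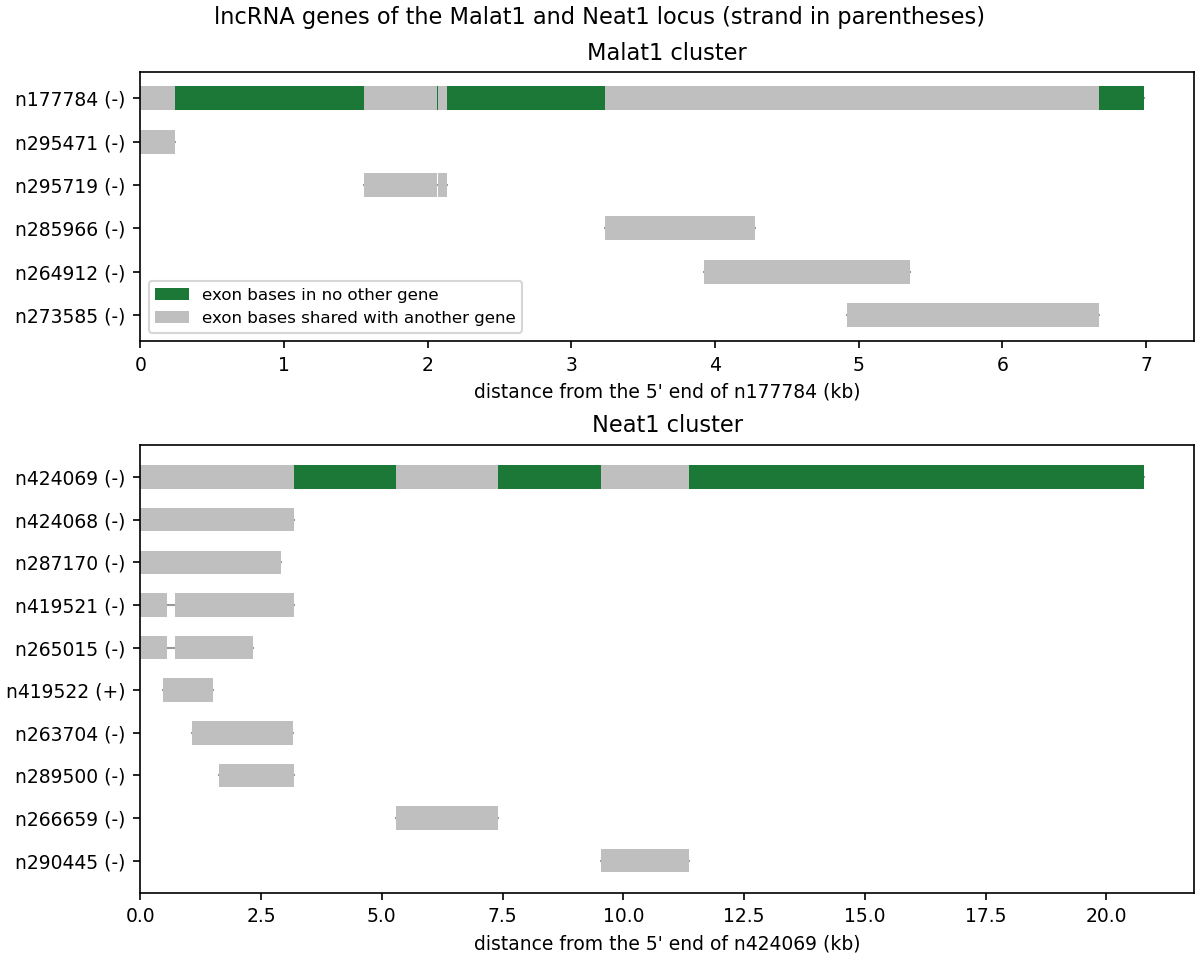
Exons of the 16 lncRNA genes, drawn by distance in kilobases from the 5′ end of n177784 (upper panel) and of n424069 (lower panel), with bases that belong to no other annotated gene in green and shared bases in grey. Green is seen on n177784 (2731 bases) and n424069 (13665 bases), while the 14 other genes are grey over their length save for 1 base of n295471.

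The ends of the RNAs are shown because the libraries were bound by oligo(dT). The sequences are from GENCODE M21 (GRCm38, minus strand), 5′ to 3′. In the stretch of Malat1 from position 6582 to 6751 (chr19:5795922-5796091) capitals mark the A-rich tract, with the tRNA-like stretch that RNase P releases behind it. The end of the long form of Neat1, positions 20662 to 20771 (chr19:5824708-5824817), has its own tract in capitals. In the last 60 bases of Malat1 as annotated (chr19:5795690-5795749) and of the short form of Neat1 (chr19:5842307-5842366) capitals mark the polyadenylation signal AATAAA.
Malat1 tract: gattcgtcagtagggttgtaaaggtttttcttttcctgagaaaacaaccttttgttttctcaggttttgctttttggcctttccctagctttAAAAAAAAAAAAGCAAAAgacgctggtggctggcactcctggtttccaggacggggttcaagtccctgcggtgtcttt
Neat1 long form end: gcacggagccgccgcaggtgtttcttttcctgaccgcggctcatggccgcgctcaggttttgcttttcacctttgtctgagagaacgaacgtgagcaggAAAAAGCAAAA
Malat1 annotated end: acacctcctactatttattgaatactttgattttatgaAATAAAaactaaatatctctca
Neat1 short form end: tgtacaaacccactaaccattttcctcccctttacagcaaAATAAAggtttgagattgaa

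The tract of Malat1 has 18 bases (positions 6674 to 6691) and opens with 12 A, and 292 annotated bases follow it. The tract of the long form of Neat1 has 11 bases, opens with 5 A and is the very end of the transcript. The last 10 letters of that form, AAAAGCAAAA, also close the tract of Malat1, and they stand in the last 100 bases of 10 of 9096 lincRNA transcripts of GENCODE M21 (0.110%) on the transcript's strand, and of 16 (0.176%) on either strand. The long form of Neat1 is among these, whereas in Malat1 the tract lies further in. In any position the 10 letters occur in 76 transcripts (0.836%). AATAAA stands in the last 100 bases of 2948 lincRNA transcripts (32.4%; 3299, 36.3%, on either strand), Malat1 and the short form of Neat1 among them and the long form not. These matches describe the annotated sequences and show no site in use.

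Counts were deposited for all 16 genes, and 14 of them are at 0 in all 6 libraries. The 2 with counts, n177784 and n424069, are the only ones of the 16 with more than 1 exon base that no other annotated gene covers. The 13 genes without any such base are at 0, as is n295471 with 1. Save for that 1 base, the bases of the 14 genes at 0 also belong to n177784 or n424069, so a 0 there does not show that RNA of those bases is absent.

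The rest of the table showed the same relation. All 6532 genes without an exon base of their own were at 0 in all 6 libraries, 370 protein-coding genes among them. Of the 3388 genes with 1 to 49 bases of their own, 93.1% were at 0. The share at 0 was 63.2% from 50 to under 200 bases, 48.5% from 200 to under 1000 bases and 23.2% of 35087 genes at 1000 bases or more. The other strand mattered as well: 408 genes have bases of their own on their own strand but none once genes of the other strand are counted in, and all 408 were at 0. n419522 is such a gene: its 1027 bases are its own on the plus strand, and it had 0 counts.

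**Figure D2:**
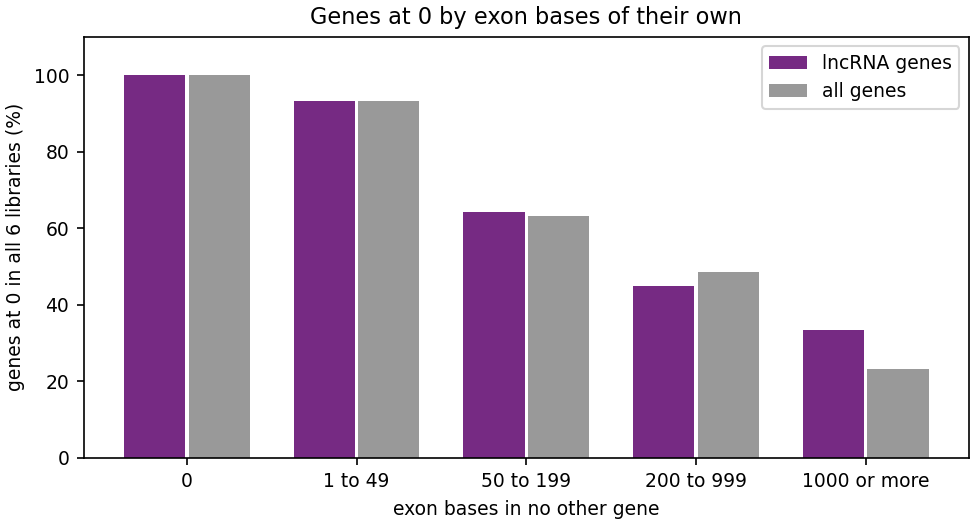
Percent of genes with 0 counts in all 6 libraries (vertical axis) by the number of exon bases that lie in no other gene of the deposited annotation (horizontal axis), for lncRNA genes (purple) and all genes (grey). The bars fall from 100% with no such base to 33.3% of lncRNA genes and 23.2% of all genes with 1000 or more.

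Going by these zeros, reads wholly in shared bases were not counted, so n177784 and n424069 are taken to report on their own stretches. Whether reads that run from own into shared bases were counted is not known. n177784 has 2731 such bases (39.1% of its exon), at positions 240 to 1558, 2068 to 2069, 2137 to 3236 and 6674 to 6983 from its 5′ end. The last of these stretches, 310 bases, begins at the position where the A-rich tract of Malat1 begins, counted on the equal length, and 292 of its bases lie behind the tract. The fragment n273585 covers the bases before that tract, so reads wholly within them would not be counted. n424069 has 13665 bases of its own (65.8%), at positions 3179 to 5300, 7406 to 9538 and 11363 to 20772. All lie beyond the first 3178 bases, in which n424068 and n419521 end, so its count speaks of bases that only the long form of Neat1 has. The genes that end early, as the short form does, have no base of their own.

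In these oligo(dT)-bound libraries Malat1 was among the most abundant lncRNAs of both fractions, at levels that overlapped between them. In order of library number, n177784 had 9292, 25130 and 36759 counts in cardiomyocytes, against 17727, 14708 and 13477 counts in nonmyocytes. Scaled to library size by the trimmed mean of M values (TMM), that was 1793, 1296 and 1775 CPM in cardiomyocytes, against 1318, 1415 and 1042 CPM in nonmyocytes. Cardiomyocyte libraries 1 and 3 lay above all nonmyocyte libraries, and library 2 below 2 of them, so the groups overlapped. The means were 1621 ± 282 CPM in cardiomyocytes and 1258 ± 194 CPM in nonmyocytes (SD, n = 3 each). The log2 fold change, cardiomyocyte over nonmyocyte, was 0.37 ± 0.19 (SE), with an adjusted p of 0.106 by edgeR's quasi-likelihood test with Benjamini-Hochberg adjustment, so the difference did not pass the 0.05 threshold.

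The long form of Neat1 was measured far lower and was much less even. n424069 had 864, 398 and 752 counts in cardiomyocytes, against 597, 681 and 429 counts in nonmyocytes. Its level was 167, 20.5 and 36.3 CPM in cardiomyocytes, against 44.4, 65.5 and 33.2 CPM in nonmyocytes. Cardiomyocyte library 1 stood above all other libraries, library 2 below all of them, and library 3 within the nonmyocyte range. The means were 74.5 ± 80.2 CPM in cardiomyocytes and 47.7 ± 16.4 CPM in nonmyocytes (SD, n = 3 each), and the log2 fold change was 0.61 ± 0.80 (SE; edgeR adjusted p = 0.541). Without cardiomyocyte library 1 the direction turned: the log2 fold change was -0.71 ± 0.25, with an edgeR adjusted p of 0.0180, a call for lower in cardiomyocytes.

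**Figure D3:**
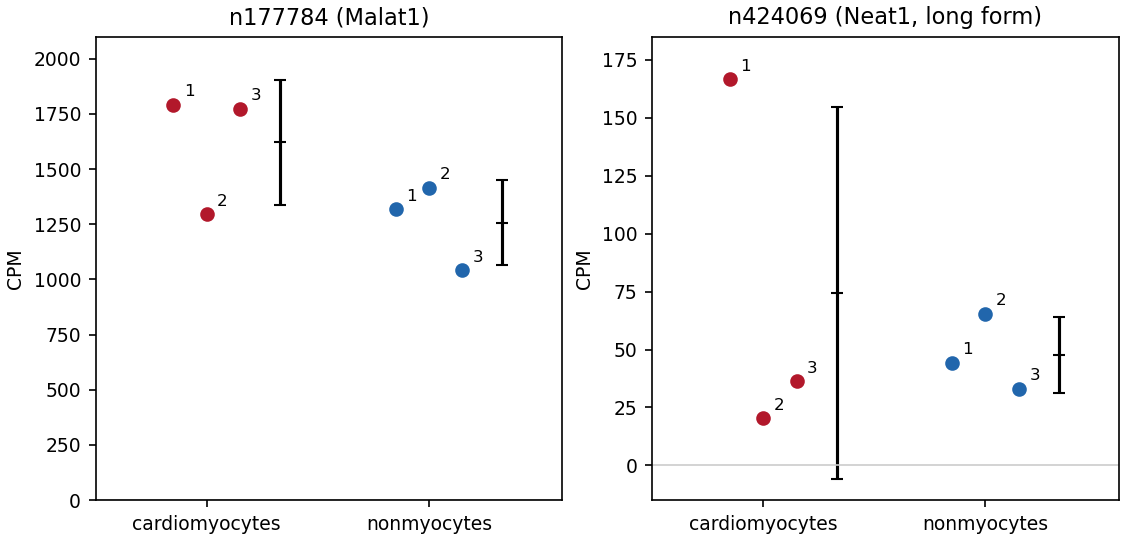
CPM of n177784 (left panel) and n424069 (right panel) in each library, with cardiomyocytes in red and nonmyocytes in blue, the library number beside each point, and the mean and SD of 3 libraries as a black mark and bar. The n177784 points lie between 1042 and 1793 CPM and overlap between fractions, and cardiomyocyte library 1 stands alone at 167 CPM of n424069.

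Neither of the 2 tested genes was called by edgeR, while 63.7% of the 14734 tested genes were: 31.6% higher and 32.1% lower in cardiomyocytes. Among the 2736 tested lncRNA genes 50.9% were called, 31.6% higher and 19.3% lower. DESeq2 and limma voom called neither gene, and neither had an unadjusted p under 0.05 by edgeR. The median absolute log2 fold change of all tested genes was 1.23 and that of tested lncRNA genes 1.44. A smaller absolute change than that of n177784 was found for 17.7% of tested genes, and than that of n424069 for 28.7%. The standard errors set the pair apart, since 14.1% of tested genes had a smaller one than n177784 but 92.0% had a smaller one than n424069. The n177784 change lay 0.39 above the median change of all genes (-0.02). Scaling by library totals moved that median by -0.68 and gave n177784 a log2 fold change of -0.29, which was then 0.41 above the median.

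Just past the stretch that defines the 16 genes lies n291673, on the plus strand at chr19:5851581-5853036 (mm9). It had 0, 4 and 3 counts in cardiomyocyte libraries and 14, 12 and 13 counts in nonmyocyte libraries, and was called lower in cardiomyocytes (-2.78 on the log2 scale; edgeR adjusted p = 0.00913). Of its exon bases 79.8% are shared with Frmd8, so its value is uncertain.

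Levels of the pair can be set against each other per length, over their own bases. Per kilobase of its own bases, n177784 had 657, 475 and 650 CPM in cardiomyocytes, against 482, 518 and 381 CPM in nonmyocytes. n424069 had 12.2, 1.502 and 2.66 CPM per such kilobase in cardiomyocytes, against 3.25, 4.80 and 2.43 CPM in nonmyocytes. On this measure Malat1 exceeded the long form of Neat1 by a ratio of 53.81, 315.9 and 244.6 in cardiomyocyte libraries. In nonmyocyte libraries the ratio was 148.6, 108.1 and 157.2. The mature ends of both RNAs carry no poly(A) tail, and how well oligo(dT) bound each was not tested. The ratio and the ranks that follow thus describe captured RNA and not the amounts in the cells. The ratio was lowest in cardiomyocyte library 1 and highest in cardiomyocyte library 2. Over all exon bases the per-kilobase means were 232 ± 40.3 CPM in cardiomyocytes and 180 ± 27.8 CPM in nonmyocytes for n177784, and 3.59 ± 3.86 and 2.30 ± 0.79 CPM for n424069 (SD, n = 3 each).

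By CPM, n177784 ranked 2, 3 and 3 in cardiomyocytes and 3, 3 and 3 in nonmyocytes among 30991 lncRNA genes with at least 1 base of their own. Per kilobase of own bases, among 26178 lncRNA genes with at least 200 of them, it ranked 8, 10 and 8 in cardiomyocytes and 7 in each nonmyocyte library. Among all genes by CPM it ranked 77, 141 and 78 in cardiomyocytes and 60, 49 and 74 in nonmyocytes, lowest in cardiomyocyte library 2. It took 0.156%, 0.0936% and 0.140% of all counts in cardiomyocytes and 0.164%, 0.181% and 0.132% in nonmyocytes, and 3.73% to 4.74% of the lncRNA counts in cardiomyocytes and 4.86% to 5.61% in nonmyocytes. n424069 moved more, from place 18 in cardiomyocyte library 1 to places 186 and 101 in cardiomyocyte libraries 2 and 3, and to places 51, 33 and 66 in nonmyocytes, by CPM among the same lncRNA genes.

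Cardiomyocyte library 1 was also set against the mean of cardiomyocyte libraries 2 and 3, gene by gene. Over 6322 genes of at least 20 CPM on average, the median log2 deviation of cardiomyocyte library 1 was -0.22, and n424069 deviated by 2.60, which 3 genes exceeded. These were the haemoglobin genes Hba-a1 (333, 46.5 and 6.71 CPM in cardiomyocyte libraries 1 to 3; deviation 4.22) and Hbb-b2 (4.20), which mark red blood cells, and the insulin gene Ins2 (3.06). n177784 stood at 0.24 (rank 882).

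Next after n424069 in cardiomyocyte library 1 came Nupr1 (2.02), Nle1 (2.01) and 2200002D01Rik (1.995). The same library had the lowest sum of endothelial markers among cardiomyocyte libraries, 323 CPM against 678 and 720 CPM in libraries 2 and 3. It is also the shallowest library, though its 864 counts of n424069 were more than in any other. The part of blood RNA or of depth in the n424069 value was not tested. These genes were picked after the values were seen.

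**Figure D4:**
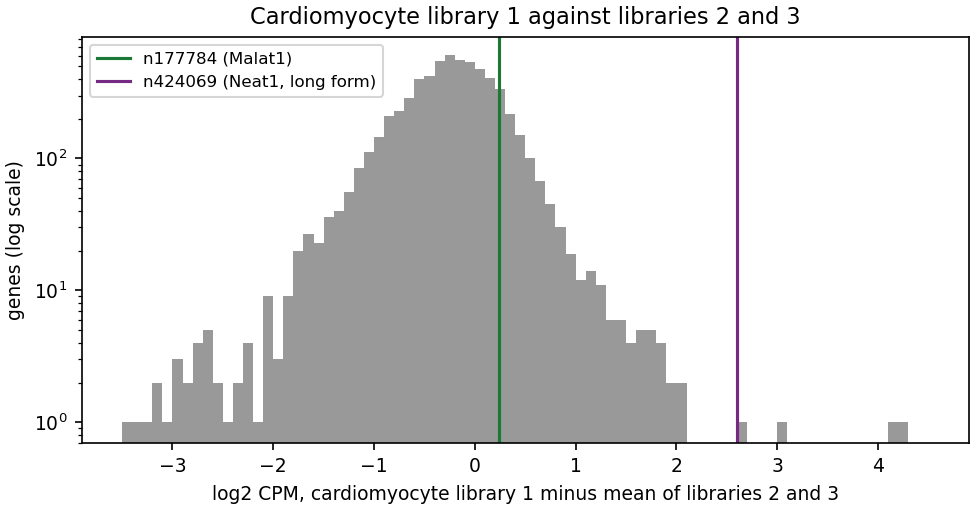
Number of genes (vertical axis, log scale) by the log2 CPM of cardiomyocyte library 1 minus the mean of cardiomyocyte libraries 2 and 3 (horizontal axis), for 6322 genes of at least 20 CPM on average. n177784 (green line, 0.24) lies within the bulk of genes, and n424069 (purple line, 2.60) lies in the right tail with 3 genes beyond it.

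The genes with the most similar course to n177784 over the 6 libraries, by Pearson's r of log2 CPM, were n279956 (0.97), n268850 (0.96), Narg2 (0.96), Zfp2 (0.96) and Trmt12 (0.96). Their levels were far lower: Trmt12, a tRNA-modifying enzyme, averaged 5.92 ± 1.11 CPM in cardiomyocytes and 5.06 ± 0.95 CPM in nonmyocytes (SD, n = 3 each). None of these 5 was called between fractions. For n424069, chosen in the same way after its values were seen, they were n284076 (0.99), n273496 (0.99), n274933 (0.99), n293928 (0.97) and Msln (0.97), each highest in cardiomyocyte library 1. The r values rest on 6 libraries that all genes share and are given as a description.

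Most tested protein-coding genes around the locus were called, in a share near the 63.7% of all tested genes. From Ovol1 to Cdca5 the annotation holds 30 of them, 14 at lower and 16 at higher coordinates, and 24 were tested. Of these 4 were higher in cardiomyocytes, 11 were lower and 9 were not called, with a median log2 fold change of -0.31 against -0.02 over all tested genes. With library totals as the scale 2 were higher and 15 were lower. With TMM, on the side of lower coordinates 3 of 11 were higher and 4 lower, and on the other side 1 of 13 was higher and 7 lower.

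Ltbp3, on the Malat1 side, binds latent TGF-beta and is secreted by fibroblasts into the matrix. Ltbp3 had 71.4, 88.2 and 73.6 CPM in cardiomyocytes, against 431, 366 and 378 CPM in nonmyocytes, and fell by 2.33 ± 0.16 on the log2 scale (SE; edgeR adjusted p = 5.46e-08). Frmd8, on the Neat1 side, partners the iRhom proteins that guide the shedding enzyme ADAM17. Frmd8 had 1.16, 8.61 and 7.15 CPM in cardiomyocytes, against 44.2, 46.8 and 49.7 CPM in nonmyocytes, and fell by 2.93 ± 0.41 on the log2 scale (SE; edgeR adjusted p = 3.48e-05). In cardiomyocyte library 1, where n424069 was highest, Frmd8 was lowest, with 6 counts. This was not particular to Frmd8: Slc25a45 was lowest there too, also with 6 counts, while Dpf2 was highest there (117 CPM).

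Further out, Ehbp1l1, an adaptor in membrane transport, averaged 690 ± 22.0 CPM in cardiomyocytes and 212 ± 17.6 CPM in nonmyocytes (SD, n = 3 each) and was higher by 1.70 on the log2 scale. Dpf2, a subunit of BAF chromatin remodellers, was higher by 0.70, though by 0.035 and not called with library totals (edgeR adjusted p = 0.857). Ovol1, an epithelial transcription factor, was higher by 4.52, though at a level of 4.54 to 5.50 CPM in cardiomyocytes against 0.0962 to 0.297 CPM in nonmyocytes. Map3k11 was higher by 0.42, a call that turned to -0.25 with library totals and was lost with 4 other settings of scaling, filter or tool and without cardiomyocyte library 2 or 3 or nonmyocyte library 2 or 3 (edgeR or DESeq2 adjusted p = 0.0524 to 0.157). Among the genes that were lower were Slc25a45 (-2.27), Rela (-1.24, with 49.01% of its exon bases shared), which codes for the NF-kappaB subunit p65, the protease Capn1 (-1.17) and Cdca5 (-4.66), a cohesin regulator of dividing cells. Cdca5 had few counts: 0, 4 and 3 in cardiomyocyte libraries and 52, 34 and 62 in nonmyocyte libraries.

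**Figure D5:**
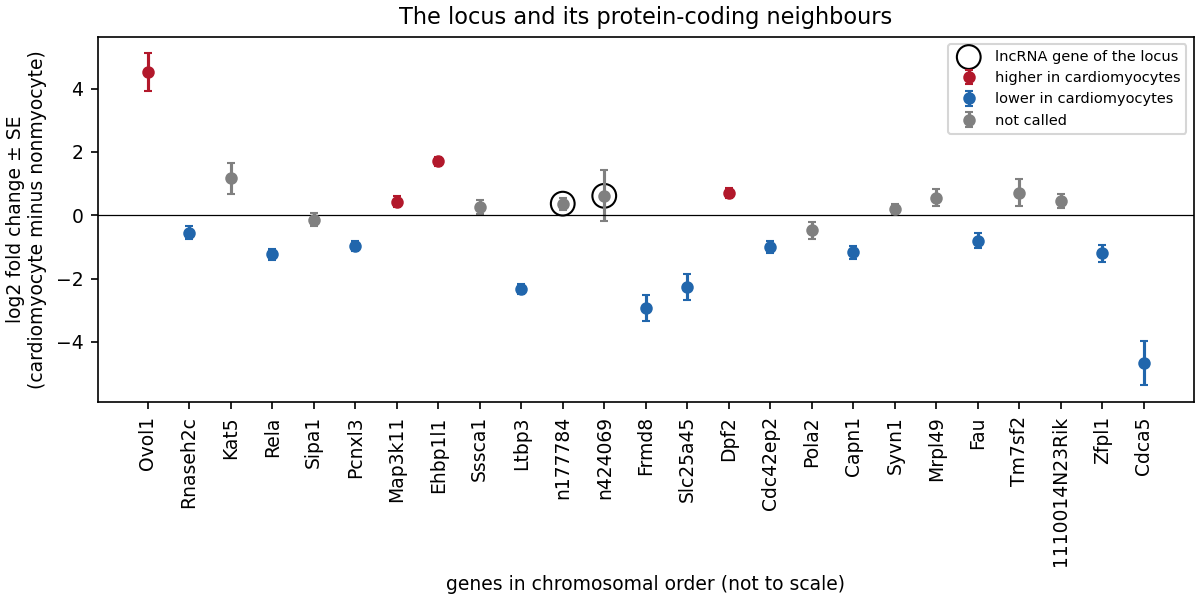
Log2 fold change (cardiomyocyte minus nonmyocyte, vertical axis) with its SE for tested protein-coding neighbours and the 2 tested lncRNA genes of the locus (circled), in chromosomal order and not to scale. Red marks the 4 genes higher in cardiomyocytes, blue the 11 lower and grey those not called, and both circled genes are grey.

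Most proteins of paraspeckles, which gather on the long form of Neat1, were not called. Of 28 listed, 24 were tested: 2 were higher in cardiomyocytes, 7 lower and 15 not called, where 31.6% of all tested genes were higher and 32.1% lower, with a median log2 fold change of -0.04, and 14 were lower with library totals as the scale. Without cardiomyocyte library 1, 6 were higher. Nono, a core paraspeckle protein, had 21.6, 36.9 and 38.4 CPM in cardiomyocytes, against 79.4, 62.8 and 63.8 CPM in nonmyocytes, and fell by 1.07 ± 0.22 on the log2 scale (SE; edgeR adjusted p = 9.77e-04). Its partner Sfpq (47.9% of exon bases shared) was at 24.6 ± 1.3 CPM in cardiomyocytes and 18.6 ± 2.2 CPM in nonmyocytes (SD, n = 3 each) and was not called (0.41 on the log2 scale; edgeR adjusted p = 0.111); it was picked as Nono's partner after its values were seen. The RNA-binding proteins Hnrnph3 and Cirbp were higher, by 1.76 and 1.49 on the log2 scale, and Hnrnpr was lower (-0.74), a call lost without cardiomyocyte library 2 or nonmyocyte library 2 (edgeR adjusted p = 0.0556 and 0.115). Of the 3 most abundant of the list, Smarca4 (-0.42) and Ubap2l (-0.71, 52.0% shared) were lower and Hnrnpul1 (-0.41; edgeR adjusted p = 0.0698) was not called. Hnrnpul1 was called lower with DESeq2 (DESeq2 adjusted p = 0.0430) and with library totals (-1.09; edgeR adjusted p = 1.11e-04). It was also called lower with the other scalings and without nonmyocyte library 2 (edgeR adjusted p = 0.0245 to 0.0458). The Smarca4 call was lost with no filter, without mitochondrial genes and without any 1 library other than cardiomyocyte library 1 (edgeR adjusted p = 0.0653 to 0.334; -0.19 without nonmyocyte library 1).

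Among the proteins of nuclear speckles, where Malat1 resides, 26 of 31 were tested, with 5 higher in cardiomyocytes, 2 lower, 19 not called and a median log2 fold change of 0.14, where 63.7% of all tested genes were called. With library totals as the scale 2 were higher and 15 lower, and without cardiomyocyte library 1, 8 were higher. Srrm2 and Son form the core of the speckle. Son had 667, 490 and 624 CPM in cardiomyocytes, against 335, 305 and 337 CPM in nonmyocytes, and was higher by 0.87 ± 0.16 on the log2 scale (SE; edgeR adjusted p = 4.86e-04), but by 0.21 and not called with library totals (adjusted p = 0.302). Srrm2 averaged 445 ± 22.5 CPM in cardiomyocytes and 484 ± 31.6 CPM in nonmyocytes (SD, n = 3 each) and was not called (-0.12). With library totals Srrm2 was called lower (-0.79; edgeR adjusted p = 4.28e-04). Acin1 was not called with TMM (0.14, and -0.52 with library totals). The kinase Clk4 was higher by 1.49 and the splicing factor gene Sfrs3 (59.2% shared) by 2.72, while Srrm1 (-2.06, 80.7% shared) was lower, a call lost with no filter and without any 1 library other than cardiomyocyte library 1 (edgeR adjusted p = 0.0603 to 0.147). Counts were few for Sfrs3 in nonmyocyte libraries (9, 12 and 12) and for Srrm1 in cardiomyocyte libraries (0, 9 and 12).

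Of 13 genes for the cutting of the 3′ ends, all were tested: 4 were higher in cardiomyocytes, 1 was lower and 8 were not called, with a median log2 fold change of 0.09, where 63.7% of all tested genes were called. With library totals as the scale 0 were higher and 3 lower, so the calls of Elac2, Pop5, Rpp14 and Rpp21 depend on the scaling (0.10, 0.47, 0.34 and 0.20 on that scale), and that of Rpp21 was also lost without cardiomyocyte library 2 (edgeR adjusted p = 0.0567). Elac2, which trims the tRNA-like fragment released from Malat1, had 49.2, 61.0 and 50.5 CPM in cardiomyocytes, against 28.2, 30.1 and 35.2 CPM in nonmyocytes, and was higher by 0.78 ± 0.18 on the log2 scale (SE; edgeR adjusted p = 0.00227). The RNase P subunit genes Pop5, Rpp14 and Rpp21 were higher by 1.17, 1.03 and 0.90, and Pop1, another subunit gene, was lower (-1.61). Mett10d, the older symbol of Mettl16, whose protein binds the Malat1 triple helix, was at 29.9 ± 5.9 CPM in cardiomyocytes and 30.7 ± 1.3 CPM in nonmyocytes (SD, n = 3 each) and was not called (-0.03).

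Few other lncRNAs known by name could be set beside the pair. Of 21 listed, 9 have a symbol in the table and 0 passed the filter on low counts. Meg3, H19, Gas5, Airn, Xist and Pvt1 were at 0 in all libraries, and 7 of the 9 have under 5 bases of their own. H19 has 1 such base and the others at 0 have none, so these zeros do not show that the RNAs are absent. The highest count of any was 6, for Snhg11 in nonmyocyte library 3. The small RNA table of the study lists 850 microRNA arms, 15 of them on chromosome 19 and 0 within the locus.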

How the data were processed

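Raw counts per gene were deposited by the authors, without normalisation, for 6 libraries of polyadenylated RNA. The submitters' processing notes name Bowtie, TopHat 1.3.0, HTSeq, DESeq and edgeR without their roles, and the build mm9 (NCBIM37). The counting rule is not given in the sources used here. Exon positions are those of the deposited mm9 annotation.

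Counts were fitted over the whole table with edgeR 4.0.16 in R 4.3.3: TMM scaling, filterByExpr (minimum count 10), robust quasi-likelihood test, two-sided, Benjamini-Hochberg adjusted p under 0.05 over 14734 genes. The biological coefficient of variation was 0.251. The SE given for edgeR was not estimated directly: it is the absolute log2 fold change divided by the square root of the F statistic. Bases of a gene's own lie in no other annotated gene on either strand. Counting error is small for n177784 and n424069 and large for genes of few counts. DESeq2 1.42.0, limma 3.58.1, other scalings and filters, a block and each left-out library were alternatives. Plots were made with matplotlib 3.10.9 in Python 3.11.15. The main edgeR fit was also run on simulated counts in which few genes changed, in both directions, and no library stood out. That run cannot speak for the scaling or for cardiomyocyte library 1 in the real data.

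Members, gene lists and tests were chosen with earlier results of these data known. Named were all members, the nearest protein-coding genes, and per list the 3 most abundant and the 2 with the largest call each way; some genes that this names are not reported here. The likeness to n424069, the library deviations and the counts by strand were added after the values were seen.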

Additional observations from a re-analysis of the deposited data

How the results depend on the processing

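Neither n177784 nor n424069 changed sides under most settings, but each had exceptions, and their cause was not tested. For n177784 the log2 fold change was -0.29 with library totals (edgeR adjusted p = 0.206) and 0.44 with no filter on low counts (0.0238, called), and it ran between 0.30 and 0.51 with 1 library left out, called at 0.50 without cardiomyocyte library 2 (0.0396). Its adjusted p ran between 0.0238 and 1.000 over 16 alternatives. For n424069 it was -0.17 with limma voom (adjusted p = 0.854) and ran between -0.71 and 1.06 with 1 library left out, -0.71 being without cardiomyocyte library 1, the only one of 16 alternatives in which it was called (adjusted p 0.0180 to 0.985). So 1 of the locus genes was called higher with no filter, 0 to 1 higher and 0 to 1 lower with 1 library left out. Summing overlapping genes into 1 row changed nothing, since the other rows are 0. Per kilobase of own bases rather than of all exon bases, n177784 had 593.7 CPM in cardiomyocytes and 460.7 CPM in nonmyocytes, and n424069 had 5.45 and 3.49 CPM.

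Whether library numbers pair the libraries is not known. Same-number correlations of the deviations from the fraction means were 0.162, 0.0504 and 0.100. Cardiomyocyte libraries 1 and 3 correlated best with their own number, but library 2 with nonmyocyte library 3 (0.0609). Each fraction mean is taken from its own 3 libraries, so these correlations depend on each other, and they do not settle the pairing. With the library number as a replicate block, n177784 had a log2 fold change of 0.36 (edgeR adjusted p = 0.108) and n424069 of 0.13 (0.927), and 4656 genes were higher and 4843 lower.

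Against a 2-fold change 3023 genes were higher and 2996 lower; with library totals 7101 were lower and 30.9% of called genes were higher, against 49.6% with TMM. With 1 library left out 4211 to 5367 genes were higher and 4286 to 5195 lower. Neighbours: 2 were higher and 15 lower with library totals, and 2 were higher and 4 lower against a 2-fold change. With 1 library left out 3 to 5 neighbours were higher and 9 to 11 lower. Paraspeckle proteins: 4 were higher with DESeq2, 5 with limma voom, 5 without mitochondrial genes and 2 to 6 with 1 library left out; 14 were lower with library totals, 4 with no filter, 0 against a 2-fold change and 3 to 6 with 1 library left out. Nuclear speckle proteins: 2 were higher with library totals and against a 2-fold change and 5 to 8 with 1 library left out; 15 were lower with library totals, 1 with no filter, 0 against a 2-fold change and 1 to 3 with 1 library left out. 3′ end genes: 0 were higher with library totals and against a 2-fold change and 3 to 5 with 1 library left out; 3 were lower with library totals and 1 with any 1 library left out.

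Among the other genes, library totals turned Map3k11 (-0.25), Sssca1 (-0.42), Syvn1 (-0.48), Mrpl49 (-0.15), 1110014N23Rik (-0.24) and Acin1 (-0.52). Sipa1 turned to 0.053 without nonmyocyte library 1. Mett10d turned to 0.038 with no filter, 0.020 with limma voom and 0.016 without mitochondrial genes, and ran between -0.102 and 0.146 with 1 library left out. In all, 42 such genes, 30 of them called, gave 542 values on the same side of the threshold, 57 that lost a call, 18 that gained one and 13 that turned. Depth limits cardiomyocyte library 1 most, and shared bases limit the genes given with a shared percent.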
